A study of Mus musculus with 40 samples.

Results

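Doxorubicin's effect on the mouse uterus was compared between harvests labelled 4 h and 24 h. It was taken as the difference between the 2 times in doxorubicin minus control, the interaction of treatment and time. The members were 20 of the series' 40 RNA-seq libraries of uterus, 5 in each of 4 groups: vehicle controls (PBS or saline) and doxorubicin alone, each collected at 4 h and at 24 h. The other 20 libraries came from mice that also or only received anti-Müllerian hormone (AMH). The mice were treated at postnatal day 25, before puberty, and doxorubicin was given as 2 weekly doses of 3 mg/kg, and the labels do not say from which dose the 4 h and 24 h were counted, so a difference at either time may include what an earlier dose left. Libraries are numbered as biological replicates, with no strain named and no statement that each was 1 mouse, so the p-values measure the spread between these libraries. Of 54532 genes in the table, 15203 reached 1 FPKM in 5 or more of the 20 libraries and were tested. FPKM counts fragments relative to the length of the gene and to a total set for each library. As rebuilt, that total was not simply the reads in genes. It was 14674000 against 17082978 reads in control 2 of 24 h, and 22886700 against 21697200 in doxorubicin 4 of 24 h. The libraries held 16251563 to 27391049 reads in genes, as rebuilt from FPKM and gene length.

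Doxorubicin is an anthracycline that traps topoisomerase II on DNA and leaves double-strand breaks. Breaks activate the kinase ATM and, through it, the transcription factor p53, whose targets halt the cell cycle, repair DNA or start cell death. DNA that leaks into the cytosol after damage can start a type I interferon response, and cells held in G2 or killed no longer pass through mitosis. The uterus before puberty holds an epithelium, a stroma and a developing smooth muscle layer, and its epithelium divides in response to oestrogen.

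The doxorubicin effect at 4 h and at 24 h largely pointed the same way, and no single gene's change between the times passed the test. By limma with Benjamini-Hochberg adjustment, 0 of 15203 genes passed for the interaction (0% called, lowest adjusted p = 0.499), while 1321 had an unadjusted p under 0.05, which is 8.69% of genes: 469 higher (3.08%) and 852 lower (5.6%). The count in other fits was 169 with library weights, 2 when all 40 libraries set the spread, and 1 without the 6 libraries high in oviduct markers described below. It was 0 with voom on rebuilt reads, which scaled each library to its reads in genes and so also changed the scaling. At 4 h 23 genes passed (0.151% of those tested), 22 higher (0.145%) and 1 lower (0.00658%), the actin-binding gene Nexn. At 24 h 1794 passed (11.8%), 853 higher (5.61%) and 941 lower (6.19%). The larger count at 24 h is not a test of a change. Of the 1794 genes 521 (29%) had an interaction p under 0.05 before adjustment, against 8.69% of all genes. These genes were chosen by the 24 h effect, which enters the interaction. A share above that of all genes follows in part from that choice. All 23 genes called at 4 h had the same sign at 24 h, and 19 of them were called there, which is 82.6% of the 4 h calls and 1.06% of the 24 h calls. Of the 24 h calls 1621 (90.4%) had the same sign at 4 h, against 67.4% of all genes. The typical standard error of an interaction was 0.216 on the log2 scale (median over genes), larger than the typical interaction itself (median size 0.199).

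**Figure D1:**
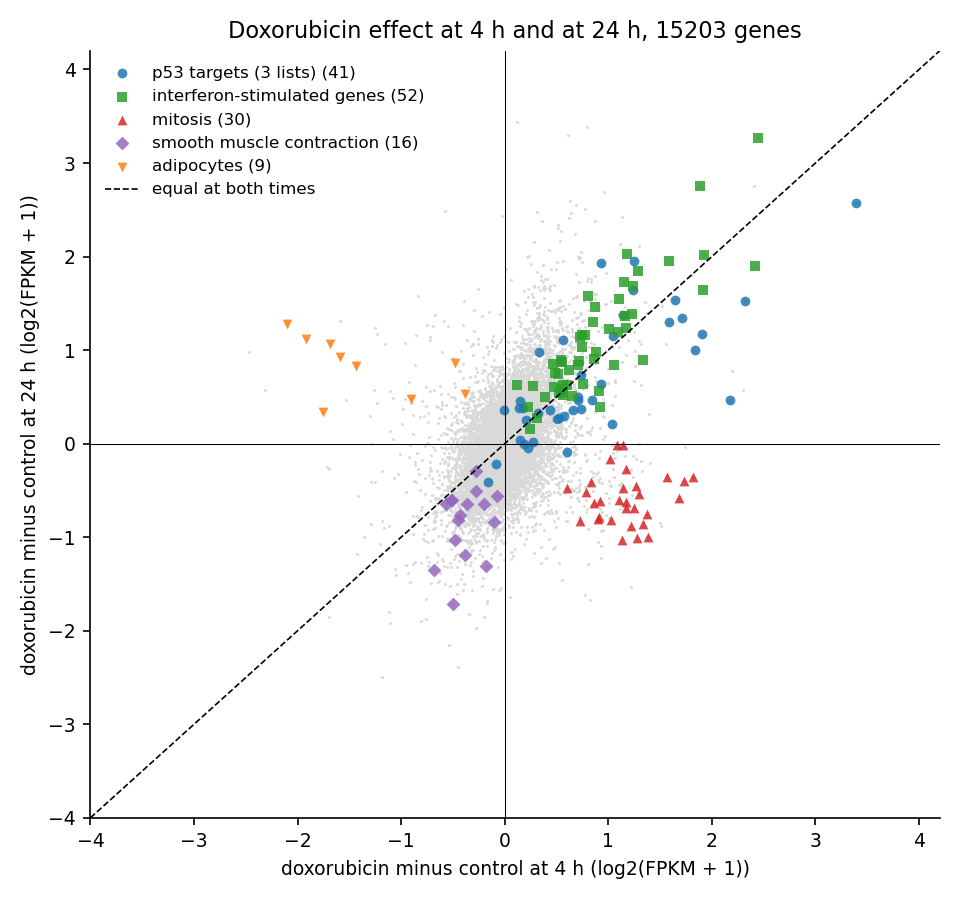
Each gene's doxorubicin effect at 4 h (horizontal axis) and at 24 h (vertical axis), both as the difference of mean log2(FPKM + 1) from the controls of the same time, with 5 libraries a group; grey points are all 15203 genes and the coloured symbols are 5 gene groups. p53 targets and interferon genes lie in the upper right, smooth muscle genes in the lower left, mitosis genes in the lower right and adipocyte markers in the upper left.

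Libraries of 1 group differed in their levels of some gene lists, and the levels below are means of log2(FPKM + 1) over a list. Oestrogen-responsive uterine genes stood at 5.2, 5.74 and 5.03 in 24 h controls 1, 2 and 4 and between 3.66 and 4.55 in all other libraries. Markers of oviduct and ciliated cells stood above 2.7 in control 4 and doxorubicin 3 and 4 at 4 h and in doxorubicin 3, 4 and 5 at 24 h (2.76, 3.13, 3.73, 3.92, 3.99 and 3.57), and at or under 2.13 in the other 14. Adipocyte markers stood at 0.866 in doxorubicin 1 at 4 h and at 5.97 in doxorubicin 2 at 24 h. Their part in the results was not tested, and counts without these libraries are given beside them. Without the high-oviduct libraries, doxorubicin 1 and 2 are the only doxorubicin libraries left at 24 h. Without the 3 high-oestrogen controls, which leaves 2 controls at 24 h, 0 genes were called at 24 h (lowest adjusted p = 0.085, 1564 genes at an unadjusted p under 0.05). Every call at 24 h named here was lost in that fit. Leaving out a single library moved the 24 h count between 229 (without doxorubicin 3 of 24 h) and 4977 (without control 3 of 24 h). The 4 h count moved between 5 (without control 2 of 4 h) and 44 (without doxorubicin 4 of 4 h). Of the 23 calls at 4 h, Cdkn1a, Sesn2 and Trp53inp1 were kept in all 32 alternative fits (highest adjusted p 0.0107, 0.0119 and 0.0388), and AC167363.2, a transcript awaiting experimental evidence and named after its values were seen, in the 31 that tested it (highest adjusted p 0.014). The fit with 1 library left out at a time called 0 genes for the interaction each time.

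**Figure D2:**
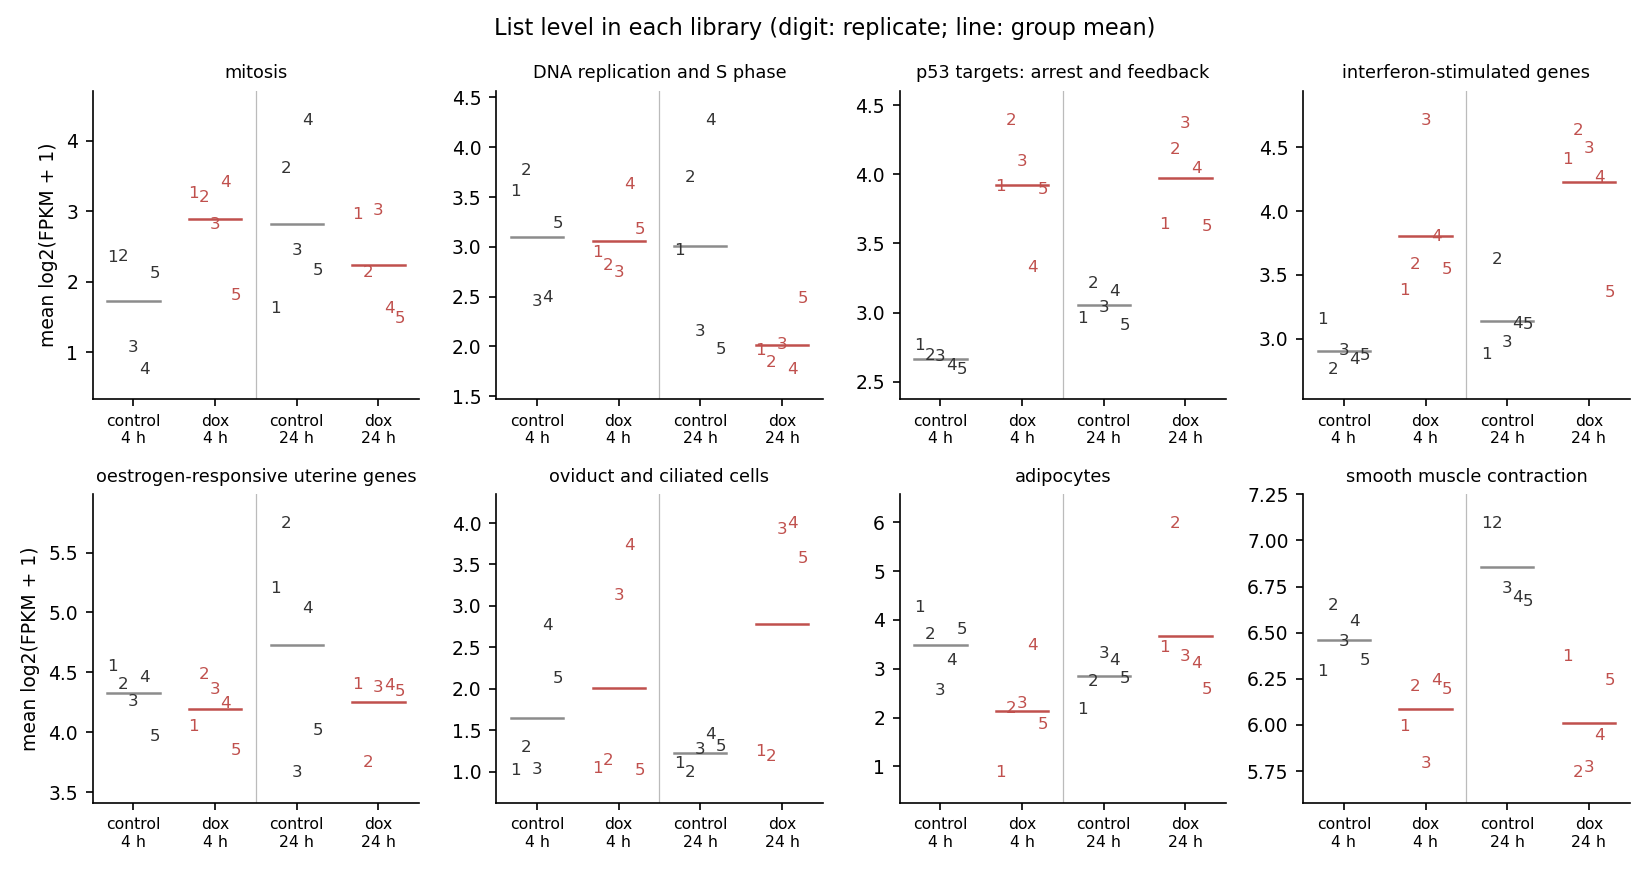
Mean log2(FPKM + 1) over the members of 8 gene lists in each library; digits are replicate numbers, lines are the means of 5 libraries, and the vertical axis differs between panels. The oestrogen-responsive list was high in 24 h controls 1, 2 and 4, the oviduct list in 6 libraries, and the mitosis list ranged from 0.76 to 4.29.

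Promoters of 6 genes that the results turn on are shown first, 4 of mitosis genes, the list with the largest median interaction of the pathways, and 2 of interferon-stimulated genes, Ifit3 called at both times and Isg15 at 24 h. Each stretch holds the 250 bases upstream of the RefSeq start, 5′ to 3′ on the gene's strand (RefSeq, GRCm38.p6, the assembly of mm10). Capitals mark, in the mitosis genes, the CHR letters TTTGAA, an element that cell cycle repressor complexes bind, and the CCAAT box, which the factor NF-Y binds. In the interferon genes they mark GAAA, any 2 bases and GAAA again, the core of the interferon-stimulated response element (ISRE). All were searched on both strands, and the 3 ISRE matches of Isg15 overlap one another. The window of Birc5 holds neither mitosis motif.
Mki67 (chr7:135716380-135716629, minus strand): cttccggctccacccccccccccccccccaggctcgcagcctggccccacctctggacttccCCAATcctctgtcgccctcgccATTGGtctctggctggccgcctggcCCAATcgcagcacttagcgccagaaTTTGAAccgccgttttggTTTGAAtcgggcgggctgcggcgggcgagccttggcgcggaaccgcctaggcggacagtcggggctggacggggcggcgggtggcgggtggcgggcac
Top2a (chr11:99024190-99024439, minus strand): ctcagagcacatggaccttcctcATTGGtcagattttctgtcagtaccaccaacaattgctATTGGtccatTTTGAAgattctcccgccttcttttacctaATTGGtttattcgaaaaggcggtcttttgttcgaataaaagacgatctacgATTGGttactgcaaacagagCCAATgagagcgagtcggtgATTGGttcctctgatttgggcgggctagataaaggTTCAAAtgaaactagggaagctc
Plk1 (chr7:122159185-122159434, plus strand): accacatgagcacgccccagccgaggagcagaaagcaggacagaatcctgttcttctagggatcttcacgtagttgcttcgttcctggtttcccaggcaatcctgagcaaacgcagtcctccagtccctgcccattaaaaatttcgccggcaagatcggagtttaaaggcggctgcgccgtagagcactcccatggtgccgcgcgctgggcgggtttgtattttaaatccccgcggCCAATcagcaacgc
Birc5 (chr11:117848987-117849236, plus strand): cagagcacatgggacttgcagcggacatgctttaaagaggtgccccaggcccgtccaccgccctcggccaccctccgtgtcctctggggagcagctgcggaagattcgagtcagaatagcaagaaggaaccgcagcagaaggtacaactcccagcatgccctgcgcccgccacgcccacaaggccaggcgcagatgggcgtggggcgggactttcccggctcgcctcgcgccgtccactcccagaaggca
Ifit3 (chr19:34583279-34583528, plus strand): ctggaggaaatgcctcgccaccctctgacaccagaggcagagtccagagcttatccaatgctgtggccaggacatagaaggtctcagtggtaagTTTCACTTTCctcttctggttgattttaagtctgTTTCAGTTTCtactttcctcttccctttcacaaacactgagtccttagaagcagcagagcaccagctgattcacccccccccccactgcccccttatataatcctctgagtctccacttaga
Isg15 (chr4:156200819-156201068, minus strand): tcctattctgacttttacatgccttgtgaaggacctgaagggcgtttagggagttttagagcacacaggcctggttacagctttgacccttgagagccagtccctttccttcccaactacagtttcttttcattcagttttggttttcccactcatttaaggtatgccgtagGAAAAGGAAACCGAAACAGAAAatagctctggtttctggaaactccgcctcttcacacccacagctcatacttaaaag

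The CCAAT box was in 24 of 28 promoter windows of the mitosis list (85.7%) and in 33.8% of all 32851 windows, and TTTGAA was in 11 of 28 (39.3%) against 16%. The 28 windows belong to 26 of the 30 mitosis genes. The ISRE letters were in 18 of 45 windows of the interferon list (40%), which belong to 38 of its 52 genes, and in 2.98% of all windows. A match is a stretch of letters and not a measured binding site, and some genes have more than 1 window.

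The mitosis list had the largest median change of any pathway list, and its level differed between the times in opposite directions in controls and after doxorubicin. All 30 mitosis genes had an interaction below 0 (−1.08 to −2.38), with a median of −1.76 against −0.02 over all genes. Of the 30, 28 had an unadjusted p under 0.05 (background 5.6% lower) and none passed after adjustment (lowest adjusted p 0.558). None was called at either time. The median effect of the list was 1.16 at 4 h and −0.61 at 24 h. The median difference of 24 h from 4 h was 1.02 among controls and −0.63 after doxorubicin.
Mki67 (chromosome 7, 135689784 to 135716361), the proliferation marker Ki-67, stood in 4 h controls at 7.62, 9.47, 1.51, 0.941 and 7.62 FPKM and after doxorubicin at 16.9, 15, 11.2, 18.6 and 4.72. At 24 h it stood at 3.35, 19.8, 9.38, 40.2 and 8.29 FPKM in controls and at 13, 5.52, 11.2, 3.23 and 2.9 after doxorubicin. The groups overlapped at both times, controls 3 and 4 were low at 4 h, and controls 2 and 4 were high at 24 h. The interaction of Mki67 was −2.20 ± 0.83 (SE; 95% interval −3.94 to −0.46, limma unadjusted p = 0.016, adjusted p = 0.558).
Top2a, the topoisomerase II of dividing cells and a target of doxorubicin, averaged 9.17 ± 6.25 and 18.3 ± 6.8 FPKM in control and doxorubicin libraries at 4 h (SD, n = 5 each) and 20.7 ± 20.2 and 7.42 ± 4.13 at 24 h. Plk1, a kinase of mitotic entry, had an interaction of −2.13 ± 0.74 and Birc5, which encodes survivin of the chromosomal passenger complex, of −2.10 ± 0.73. Top2b, the other topoisomerase II gene, had an interaction of 0.06 ± 0.13 and stood between 11.6 and 14.2 FPKM on average in the 4 groups.
The mitosis genes of 1 library share its state, so the 30 genes are not 30 replicates. In bulk RNA, fewer cells of a type and less RNA per cell cannot be told apart. Of the 3 high-oestrogen controls of 24 h, 2 and 4 had the highest mitosis levels of the 5 (3.61 and 4.29) and control 1 the lowest (1.63), with controls 3 and 5 at 2.44 and 2.16. With any single library left out the list's median lay between −2.07 (without control 1 of 24 h) and −1.38 (without control 4 of 24 h). Without the 3 high-oestrogen controls the median was −1.26, with 5 genes lower at an unadjusted p under 0.05 (background 3.07%). With the 6 high-oviduct libraries left out instead it was −1.12, with 0 such genes (background 3.31%).

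**Figure D3:**
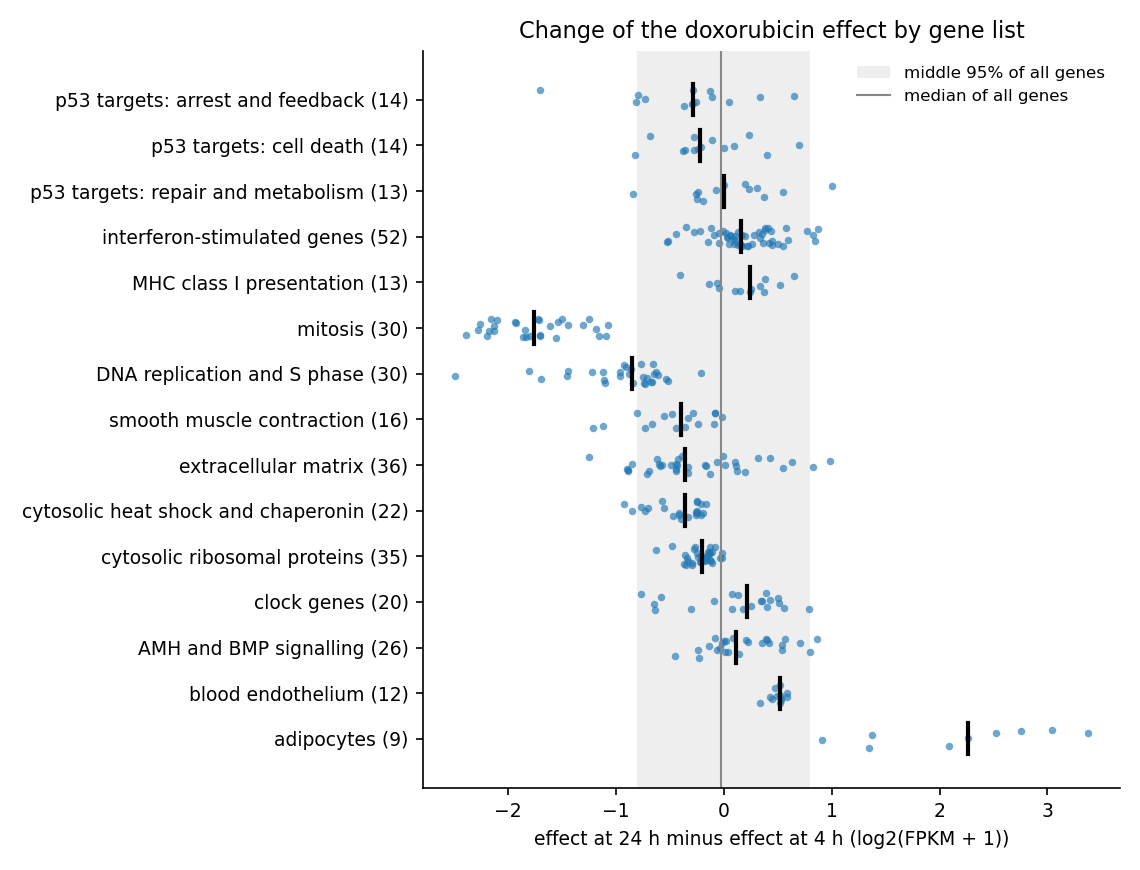
Effect at 24 h minus effect at 4 h, in log2(FPKM + 1), of each measured member (points) of 15 gene lists, with the list's median (black bar), the median of all genes (grey line) and the middle 95% of all genes (grey band). All 30 mitosis genes lie below 0 and all 9 adipocyte markers above 0, while the median of the interferon-stimulated genes is 0.16.

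Genes of DNA replication and S phase, which act before mitosis, all had interactions below 0 as well (30 of 30, median −0.85). Of these 6 had an unadjusted p under 0.05 (background 5.6% lower) and none passed after adjustment. Their median effect was −0.09 at 4 h and −0.99 at 24 h, so unlike the mitosis list they had no positive median at 4 h; this contrast between the lists was not tested. At 24 h 4 of 30 were called (background 6.19% lower), all lower and none without the high-oviduct or the adipocyte libraries: Rrm2, Tk1, Ccne1 and Ccne2, the last 3 named after their values were seen, because the count is small.
Rrm2, the small subunit of ribonucleotide reductase, stood at 12.5, 14.6, 2.59, 2.81 and 10.6 FPKM in 4 h controls and at 16.1, 17, 8.4, 21.6 and 7.86 after doxorubicin. Its values at 24 h were 6.37, 26.7, 4.79, 40 and 4.7 FPKM in controls and at 3.76, 2.46, 2.92, 1.8 and 3.7 after doxorubicin. The 24 h groups did not overlap, and the doxorubicin libraries were the lower. The difference at 24 h was −1.67 ± 0.54 (limma adjusted p = 0.0491), a call lost on leaving out any of 16 single libraries, that is, any but control 3 of 4 h and controls 3 and 5 and doxorubicin 5 of 24 h (adjusted p from 0.0514 to 0.135). Its interaction was −2.49 ± 0.76 (unadjusted p = 0.00388, adjusted p = 0.558).
The S phase list's median was 0.11 without the 3 high-oestrogen controls, against −0.85 with all 20 libraries. Without them 2 genes were lower at an unadjusted p under 0.05 (background 3.07%). The part of those controls was not tested. The heat shock and chaperonin list had 22 of 22 interactions below 0 (median −0.36) and 10 genes called lower at 24 h (background 6.19%). The calls were 0 without the high-oviduct libraries and 1 without the adipocyte libraries (backgrounds 0.513% and 0.875%). The list's median interaction was 0.01 without the high-oestrogen controls.

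Targets of p53 were above controls at both times, and their changes between the times went both ways. Among targets of arrest and feedback 7 of 14 were called higher at 4 h and 8 at 24 h, with a median effect of 1.25 and 0.93. Among targets of cell death 1 of 14 was called at 4 h and 4 at 24 h (medians 0.72 and 0.35), and among targets of repair and metabolism 1 of 13 and 4 of 13 (medians 0.44 and 0.38). The background was 0.145% of genes called higher at 4 h and 5.61% at 24 h. The median interactions of the 3 lists were −0.29, −0.22 and 0.00. Without the high-oviduct libraries the calls were 6, 0 and 0 at 4 h and 4, 2 and 2 at 24 h in the same order (backgrounds 0.112% and 1.3% higher). Without the low- and high-adipocyte libraries they were 5, 0 and 0 at 4 h and 3, 3 and 2 at 24 h (backgrounds 0.0855% and 1.09%). The 4 h calls of the cell death and repair lists were thus lost in both fits.
Cdkn1a (chromosome 17, 29090976 to 29100727) encodes p21, an inhibitor of cyclin-dependent kinases. It stood at 3.62, 4.6, 5.07, 4.41 and 1.88 FPKM in 4 h controls and at 38.6, 86.5, 79.8, 14.7 and 69.7 after doxorubicin. At 24 h it stood at 15.2, 17.6, 6.37, 13.4 and 6.01 FPKM in controls and at 39.7, 96.9, 92.7, 82.5 and 52.7 after doxorubicin. Every doxorubicin library was above every control of its time. On average it stood at 57.9 ± 30.3 and 72.9 ± 25.3 FPKM after doxorubicin and at 3.92 ± 1.25 and 11.7 ± 5.24 FPKM in controls (SD, n = 5 each, 4 h first). Its effect was 3.39 ± 0.41 at 4 h and 2.58 ± 0.41 at 24 h (SE), and the difference was −0.82 (95% interval −2.04 to 0.41, unadjusted p = 0.179). An interval of that width does not show that the effects were equal. Without the high-oestrogen controls, which stood at 15.2, 17.6 and 13.4 FPKM, the 24 h effect of Cdkn1a was 3.28. Over the alternative fits its interaction lay between −1.34 and −0.11.
Ccng1, cyclin G1, had effects of 1.64 and 1.53 (interaction −0.11, 95% interval −0.88 to 0.67), and its call at 4 h was lost without control 2 of 4 h (adjusted p = 0.0501). Trp53inp1, a p53 cofactor in stress, had effects of 1.71 and 1.34. Sesn2, a sestrin that restrains mTORC1, had effects of 1.90 and 1.17 (interaction −0.73, 95% interval −1.48 to 0.01, unadjusted p = 0.0531); its 24 h call was lost without doxorubicin 3 of 24 h (adjusted p = 0.0509), the high-oviduct libraries (adjusted p = 0.0851) or the adipocyte libraries (adjusted p = 0.0528).

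Gtse1, which had the lowest interaction of the 3 p53 lists, and Ckap2 both encode proteins of cell division. Gtse1, a microtubule-bound protein of G2 that restrains p53, stood at 3.14, 2.51, 1.23, 0.675 and 1.95 FPKM in 4 h controls and at 13.5, 19.9, 10.8, 6.93 and 9.52 after doxorubicin. Values of 24 h were 1.69, 8.82, 1.77, 14.4 and 2.3 FPKM in controls and at 5.25, 7.17, 11, 5.16 and 3.91 after doxorubicin. The groups were separate at 4 h and overlapped at 24 h, where controls 2 and 4 were high. The interaction was −1.71 ± 0.61 (95% interval −2.98 to −0.44, unadjusted p = 0.0112, adjusted p = 0.558).
Ckap2, a spindle protein named after its values were seen as a 4 h call that was not called at 24 h, averaged 3 ± 1.57 and 18.8 ± 8.45 FPKM at 4 h and 10.1 ± 6.29 and 15.1 ± 8.35 FPKM at 24 h in control and doxorubicin libraries. Its effect was 2.30 ± 0.42 at 4 h and 0.57 ± 0.42 at 24 h, with an interaction of −1.74 ± 0.60 (unadjusted p = 0.00914, adjusted p = 0.558). Psrc1, another microtubule protein, had effects of 2.32 and 1.52, both called; the 24 h call was lost without control 1 (adjusted p = 0.0565) or doxorubicin 3 of 24 h (adjusted p = 0.0614).
The 4 genes called at 4 h and not at 24 h were Ckap2, Gtse1, Apaf1 of the apoptosome, and Gdf15, a secreted stress cytokine. Apaf1 had effects of 0.73 and 0.37 and Gdf15 of 1.84 and 1.00, with interactions of −0.36 (unadjusted p = 0.0737) and −0.84 (unadjusted p = 0.118). Without the high-oestrogen controls the interaction of Gdf15 turned to 0.15. Each of these 4 calls at 4 h was lost on leaving out any of the 4 h libraries other than doxorubicin 4, with adjusted p of 0.0519 to 0.118 for Apaf1 and Ckap2 and up to 0.188 for Gdf15 and Gtse1; some 24 h libraries did the same (doxorubicin 4 for Ckap2, control 1 and doxorubicin 2 and 4 for Gdf15, control 5 and every doxorubicin library but 3 for Gtse1). Without the high-oviduct libraries the adjusted p was 0.29 for Gdf15 and 0.319 for Gtse1. The call of Mdm2, the ligase that degrades p53, was lost in the same way at 4 h, and without doxorubicin 4 of 24 h (adjusted p up to 0.129), and at 24 h without controls 1, 2 or 4 or doxorubicin 2, 3 or 4 (up to 0.0941); its effects were 0.93 and 0.64. Doxorubicin 4 of 4 h had the lowest level of the arrest list among the 5 (3.33, the others 3.89 to 4.39), and leaving it out raised the number of 4 h calls to 44.
Other targets lay further from controls at 24 h. Ephx1, microsomal epoxide hydrolase, stood at 47.9, 39.3, 57.8, 54.2 and 62.9 FPKM in 4 h controls and at 103, 104, 133, 77.9 and 88.7 after doxorubicin. At 24 h it stood at 28, 22.3, 51.3, 26.5 and 38.7 FPKM in controls and at 85.7, 146, 172, 165 and 85.1 after doxorubicin. The groups did not overlap at either time, and 24 h controls were the lowest of the 4 groups on average. Its effect was 0.93 ± 0.23 at 4 h (adjusted p = 0.164) and 1.94 ± 0.23 at 24 h (adjusted p = 0.000386), with an interaction of 1.00 (95% interval 0.31 to 1.70, unadjusted p = 0.00678, adjusted p = 0.558). Bbc3, which encodes the BH3-only death protein PUMA, averaged 5.52 ± 0.862 and 15.5 ± 5.93 FPKM at 4 h and 3.92 ± 1.79 and 17.9 ± 6.21 FPKM at 24 h, with an interaction of 0.70 (95% interval −0.15 to 1.55). Pmaip1, which encodes the related NOXA, went the other way, with effects of 1.04 and 0.21, neither called, and an interaction of −0.82 (unadjusted p = 0.0488). Vnn1, a pantetheinase of membranes named after its values were seen, was called at both times with effects of 1.03 and 1.53 and an interaction of 0.50 (95% interval 0.00 to 0.99). Its 4 h call was lost without the high-oviduct libraries (effect 0.81, adjusted p = 0.365), control 2 (adjusted p = 0.0519) or doxorubicin 3 (adjusted p = 0.0562). Without the high-oestrogen controls the 24 h effects of Ephx1, Bbc3 and Vnn1 were 1.47, 1.48 and 1.29. The lowest interactions of these genes over the alternative fits were 0.53, 0.23 and 0.26.

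**Figure D4:**
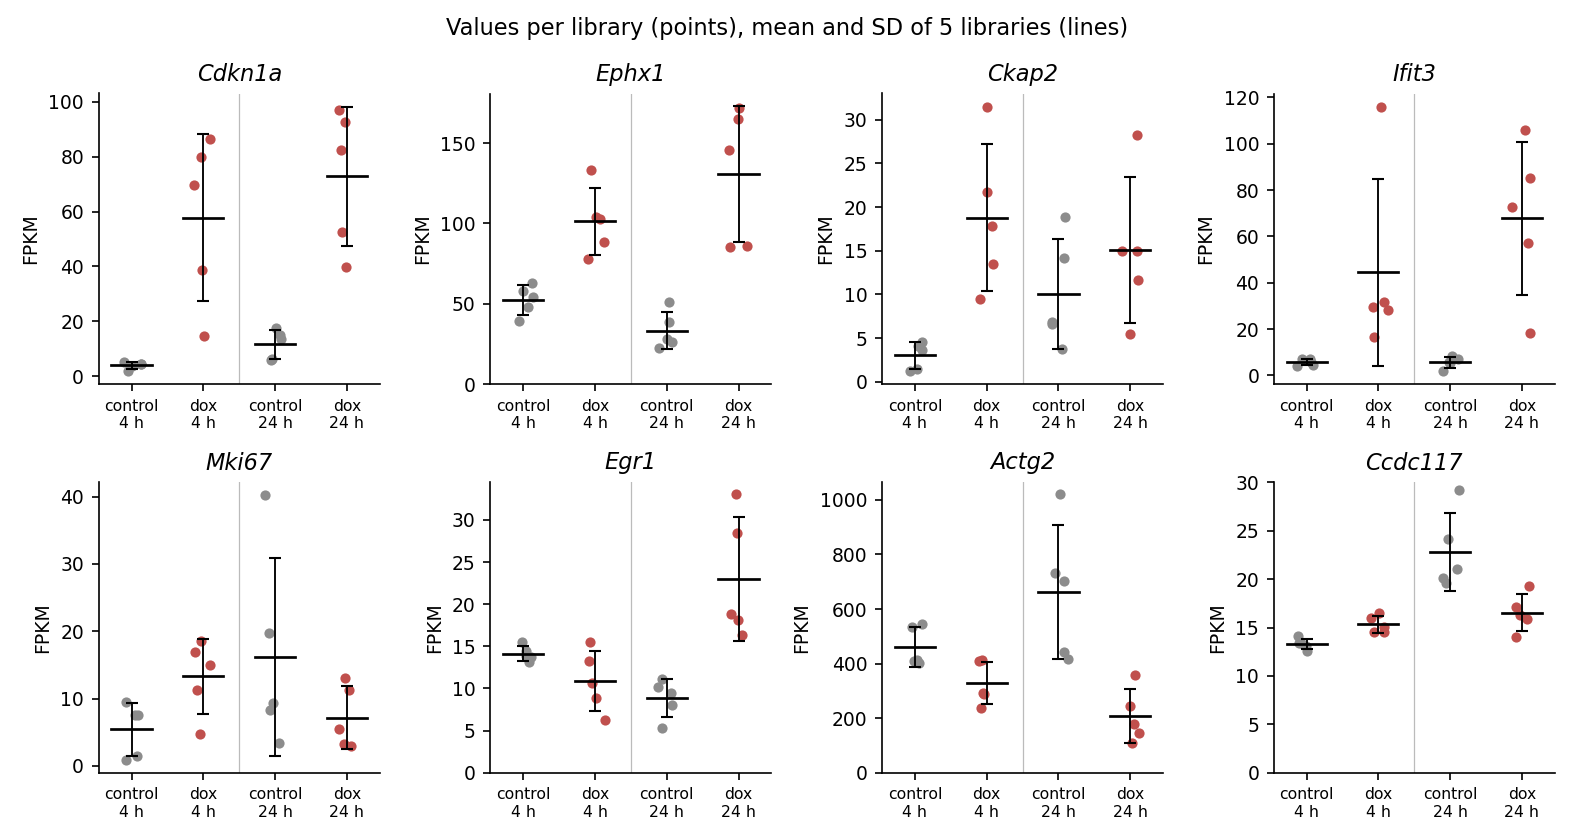
FPKM of 8 genes in each of the 20 libraries (points), with the mean and SD of each group of 5 (lines); grey is control, red doxorubicin, and each vertical axis starts near 0. Cdkn1a, Ephx1 and Ifit3 were separate from controls at both times, Ckap2 was separate at 4 h and overlapped at 24 h, Mki67 overlapped at both, and Egr1 at 24 h stood between 16.4 and 33.1 after doxorubicin and between 5.28 and 11.1 in controls.

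Interferon-stimulated genes, the antiviral programme, were already above controls at 4 h. Their median effect was 0.76 at 4 h and 0.89 at 24 h. Of 52 measured, 3 were called at 4 h (all higher, background 0.145%) and 37 at 24 h (all higher, background 5.61%). At an unadjusted p under 0.05 the number was 44 at both times, against backgrounds of 5.45% and 15.7% of genes higher. None had an interaction p under 0.05, and the list's median interaction was 0.16. Without the high-oviduct libraries the calls were 0 at 4 h (background 0.112%) and 33 at 24 h (background 1.3%). The median effect was then 0.53 at 4 h and 1.17 at 24 h. The median interaction in that fit was 0.73, with 26 of 52 genes higher at an unadjusted p under 0.05 (3.72% of all genes). That fit kept only doxorubicin 1 and 2 in the doxorubicin group of 24 h, and doxorubicin 2 held the highest adipocyte level. Without the low- and high-adipocyte libraries the calls were 3 at 4 h and 17 at 24 h (backgrounds 0.0855% and 1.09%). The median interaction was then 0.01, with 0 genes higher at an unadjusted p under 0.05 (background 2.18%).
Ifit3 (chromosome 19, 34583531 to 34588731), an interferon-induced protein of RNA sensing whose promoter is shown above, stood at 7.19, 4.14, 7.02, 5.88 and 4.54 FPKM in 4 h controls and at 16.7, 29.7, 116, 31.8 and 28.1 after doxorubicin. At 24 h it stood at 1.9, 5.31, 6.98, 5.76 and 8.35 FPKM in controls and at 72.5, 106, 85.2, 57.3 and 18.2 after doxorubicin. The groups did not overlap at either time, doxorubicin 3 was the highest at 4 h and doxorubicin 5 the lowest at 24 h. Its effects were 2.44 ± 0.46 and 3.27 ± 0.46 and its interaction 0.83 (95% interval −0.54 to 2.19). Ifit3 has a near-identical copy, Ifit3b, so its counts are uncertain.
Ifit1 had effects of 1.92 and 2.02, and Isg15, a ubiquitin-like modifier, of 1.92 (adjusted p = 0.102) and 1.64 (adjusted p = 0.0284, lost without controls 1 or 4 or doxorubicin 2, 3 or 4 of 24 h at up to 0.086). The interaction of Isg15 was −0.28, and it turned to 0.23 without the high-oestrogen controls and to 0.37 without the high-oviduct libraries. The 4 h calls of Ifit1 and Ifit3 were lost without any 4 h control, doxorubicin 2, 3 or 5 of 4 h, or doxorubicin 4 of 24 h (adjusted p up to 0.129). Doxorubicin 3 of 4 h, a high-oviduct library, had the highest level of the list at either time (4.71; the other 4 h doxorubicin libraries 3.38 to 3.8).
Genes of MHC class I presentation, which interferon induces, were called in 0 of 13 at 4 h and 8 of 13 at 24 h (all higher). The backgrounds were 0.145% and 5.61%. Their median effects were 0.41 and 0.56, with a median interaction of 0.24. None of their interactions had a p under 0.05, and the difference in calls is not a test of a difference in effect. Without the high-oviduct libraries, which leaves doxorubicin 1 and 2 at 24 h, the median interaction was 0.63. In that fit 8 of 13 were higher at an unadjusted p under 0.05 (background 3.72%), and 7 were called at 24 h (background 1.3%). Without the low- and high-adipocyte libraries 2 of 13 were called at 24 h (background 1.09%), and the median interaction was 0.12.

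Smooth muscle contraction genes were lower after doxorubicin at 24 h: 15 of 16 were called lower (background 6.19%) and none at 4 h. At 4 h 9 of 16 were lower at an unadjusted p under 0.05 (background 5.19%). The median effect was −0.41 at 4 h and −0.71 at 24 h. All 16 interactions were below 0 (median −0.40) and 7 had an unadjusted p under 0.05 (background 5.6% lower). Without the high-oviduct libraries 5 were called lower at 24 h (background 0.513%). Without the high-oestrogen controls the median interaction was −0.27, and 1 of 16 was lower at an unadjusted p under 0.05 (background 3.07%).
Actg2, the smooth muscle gamma actin, stood at 412, 544, 401, 536 and 409 FPKM in 4 h controls and at 289, 409, 239, 413 and 294 after doxorubicin. The 24 h values were 732, 1020, 417, 703 and 442 FPKM in controls and at 359, 109, 144, 180 and 243 after doxorubicin. The groups overlapped at 4 h and not at 24 h. Its interaction was −1.22 ± 0.40 (95% interval −2.04 to −0.39, unadjusted p = 0.00631, adjusted p = 0.558). Its level in the control group was higher at 24 h by 0.46 and its level after doxorubicin lower by 0.76, as differences of mean log2. Controls 3 and 5 of 24 h, at 417 and 442 FPKM, lay within the range of the 4 h controls. The high-oestrogen controls 1, 2 and 4 stood at 732, 1020 and 703. Without those 3 the effect of Actg2 at 24 h was −1.17. Over the alternative fits its interaction lay between −1.46 and −0.67.
Myh11, the smooth muscle myosin heavy chain, had effects of −0.10 and −0.83 (adjusted p = 0.00455), Acta2 of −0.48 and −1.03 (adjusted p = 0.00322) and Cnn1, calponin, of −0.68 and −1.35 (adjusted p = 0.00341). The 24 h calls of Actg2 and Myh11 were lost without the high-oviduct libraries (adjusted p = 0.0621 and 0.0724).
Among 36 extracellular matrix genes 11 had lower and 1 higher interactions at an unadjusted p under 0.05, against 5.6% and 3.08% of all genes, with a median of −0.36. Without the high-oestrogen controls 2 were lower and 1 higher (3.07% and 1.85% of all genes). At 24 h 12 were called lower and 2 higher (backgrounds 6.19% and 5.61%), and 2 and 1 without the high-oviduct libraries (backgrounds 0.513% and 1.3%). Emilin1, an elastic fibre protein, fell at 24 h by 0.70 ± 0.14 (adjusted p = 0.0103) with an effect of −0.10 at 4 h. Thbs1, thrombospondin 1, rose by 0.85 ± 0.14 at 24 h (adjusted p = 0.00341) with an effect of 0.21 at 4 h. Col16a1, a fibril-associated collagen that the rule for lowest interactions named, averaged 61.6 ± 5.17 and 62 ± 11.2 FPKM at 4 h and 61 ± 5.14 and 33.7 ± 10.3 FPKM at 24 h, with an interaction of −0.87 ± 0.22 (unadjusted p = 0.000965, adjusted p = 0.558).
The growth factor Igf1 and Igfbp5, which binds it, fell at 24 h by 1.90 ± 0.33 and 1.29 ± 0.26 (adjusted p = 0.00481 and 0.0103), with effects of −0.81 and −0.38 at 4 h. In both genes doxorubicin 5 of 24 h stood apart, at 39.5 and 273 FPKM against 9 to 13.2 and 58.6 to 111 in the other 4. Igf1 is also a member of the oestrogen-responsive list. Without the high-oestrogen controls the 24 h effects of Igf1 and Igfbp5 were −1.20 and −1.35 (limma adjusted p = 0.306 and 0.21).

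The genes with the smallest interaction p were a mixture. As no gene passed, the rule named the 12 protein-coding genes with the smallest unadjusted p in each direction, with adjusted p from 0.499 to 0.558. Of the 12 with higher interactions 6 had a larger effect of the same sign at 24 h, or under 0.3 at 4 h, 3 had opposite signs with at least 0.3 at both times, and 3 were larger at 4 h or under 0.3 at 24 h. Of the 12 with lower interactions the numbers were 5, 2 and 5.
Egr1 (chromosome 18, 34859823 to 34864984), an immediate early zinc finger factor, had the smallest p. It stood at 14.4, 15.5, 13.7, 13.9 and 13.1 FPKM in 4 h controls and at 10.6, 8.91, 13.2, 6.31 and 15.5 after doxorubicin. In the 24 h libraries Egr1 stood at 5.28, 10.2, 11.1, 8.08 and 9.5 FPKM in controls and at 18.8, 33.1, 28.5, 16.4 and 18.1 after doxorubicin. The groups overlapped at 4 h and were separate at 24 h. Its effect was −0.40 ± 0.22 at 4 h (adjusted p = 0.525) and 1.27 ± 0.22 at 24 h (adjusted p = 0.00455), with an interaction of 1.67 ± 0.31 (95% interval 1.02 to 2.32, unadjusted p = 3.28e-05, adjusted p = 0.499). Of the 26 immediate early genes measured, 1 had a higher interaction at an unadjusted p under 0.05, which was Egr1, and 1 a lower (backgrounds 3.08% and 5.6%). In a fit that used all 40 libraries for the spread, Egr1 passed (adjusted p = 0.0441).
Ccdc117 (chromosome 11, 5528887 to 5542187) stood between 12.6 and 14.1 FPKM in 4 h controls, between 14.5 and 16.5 after doxorubicin, between 19.6 and 29.2 in 24 h controls and between 14 and 19.3 after doxorubicin. The groups were separate at both times in opposite directions. Its interaction was −0.62 ± 0.14 (unadjusted p = 0.000273, adjusted p = 0.558; adjusted p = 0.0369 with all 40 libraries). Its 24 h call was lost without doxorubicin 3 (adjusted p = 0.0523). Rnaseh2c, a subunit of RNase H2, averaged 19.2 ± 0.772 and 27 ± 3.09 FPKM at 4 h and 23.3 ± 4.25 and 19.8 ± 1.44 FPKM at 24 h, with an interaction of −0.67 ± 0.15; it is overlapped by the coding gene Kat5, so reads could be shared. Dio2, the deiodinase that activates thyroid hormone, averaged 104 ± 9.76 and 42.4 ± 11.5 FPKM at 4 h and 69.4 ± 30.4 and 80.9 ± 26.9 FPKM at 24 h, with an interaction of 1.60 ± 0.42. Apobec1, a cytidine deaminase, had effects of 0.35 and 1.75 and an interaction of 1.40 ± 0.37. Chrdl2, a secreted BMP antagonist, had effects of −0.17 and −1.71 and an interaction of −1.53 ± 0.37. Smad6, an inhibitor of BMP and AMH signalling, had effects of −0.08 and 0.34 (adjusted p = 0.0172 at 24 h, lost without doxorubicin 3 of 24 h at 0.0614) and an interaction of 0.42 ± 0.11. Dnajb4, a cochaperone, had effects of 0.06 and −0.50 and Nuak1, a kinase of the AMPK family, of −0.30 and 0.41.

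Markers of other cells and tissues were measured beside these results, and no marker passed for the interaction after adjustment. All 9 adipocyte markers had interactions above 0 (median 2.26) and 8 had an unadjusted p under 0.05, against 3.08% of genes. The list's level ranged from 2.55 to 4.25 in 4 h controls, 0.866 to 3.48 after doxorubicin, 2.17 to 3.32 in 24 h controls and 2.57 to 5.97 after doxorubicin. Cidec, a lipid droplet protein, stood at 19.2, 10.7, 3.02, 7.44 and 10.1 FPKM in 4 h controls, at 0, 1.44, 1.56, 10.2 and 0.646 after doxorubicin at 4 h, at 2.34, 4.04, 6.97, 5.84 and 4.14 in 24 h controls and at 8.52, 72.8, 6.28, 7.96 and 4.02 after doxorubicin at 24 h. The groups overlapped at both times and 1 library of 24 h was far above the rest. Without doxorubicin 1 of 4 h and doxorubicin 2 of 24 h the median interaction was 1.25 with 7 of 9 at an unadjusted p under 0.05 (background 2.18% higher). Its part in the other results was not tested.
All 12 blood endothelium markers had interactions above 0 (median 0.52), 4 of them at an unadjusted p under 0.05 (background 3.08%). Without the high-oestrogen controls the median was 0.14 with 0 such genes (background 1.85%). Among markers of oviduct and ciliated cells the median interaction was 0.93 and 0 of 11 had an unadjusted p under 0.05. Their median effect at 24 h was 1.3, with 9 of 11 higher at an unadjusted p under 0.05 (background 15.7%) and 0 called. The list's level at 24 h ranged from 0.986 to 1.45 in controls and from 1.18 to 3.99 after doxorubicin. Cytosolic ribosomal protein genes had 35 of 35 interactions below 0, with a median of −0.20 and 10 at an unadjusted p under 0.05 (background 5.6%). Their median lay between −0.25 and −0.16 with any single library left out. Among 20 clock genes 8 were called higher at 24 h (background 5.61%), and 1 without the high-oviduct libraries (background 1.3%). Their median interaction was 0.22 and, without the high-oestrogen controls, −0.24. Nr1d1, REV-ERB alpha, averaged 51.6 ± 11.4 and 60.2 ± 11 FPKM at 4 h and 10.6 ± 5.98 and 20.5 ± 3.78 FPKM at 24 h, a difference of −2.30 between the times in controls on the log2 scale; it is overlapped by the coding gene Thra. Its 24 h call was lost without controls 1, 2 or 4 or doxorubicin 2 or 3 of 24 h (adjusted p up to 0.0727). Per2, another clock gene, had an interaction of −0.65 ± 0.21.
Among 16 acute phase and inflammation genes 3 were called higher at 24 h (background 5.61%). Serpina3n, an acute phase protease inhibitor, averaged 1.65 ± 0.927 and 5.98 ± 7.73 FPKM at 4 h and 2.2 ± 1.71 and 24.5 ± 24.7 FPKM at 24 h, with an interaction of 1.73 (95% interval −0.01 to 3.47). Orm1, orosomucoid, had an interaction of 2.42 ± 0.79 (unadjusted p = 0.00636, adjusted p = 0.558), with 36.4 FPKM in doxorubicin 2 of 24 h against 1.1 to 4.41 in the other 4. That library also held the highest adipocyte level.

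**Figure D5:**
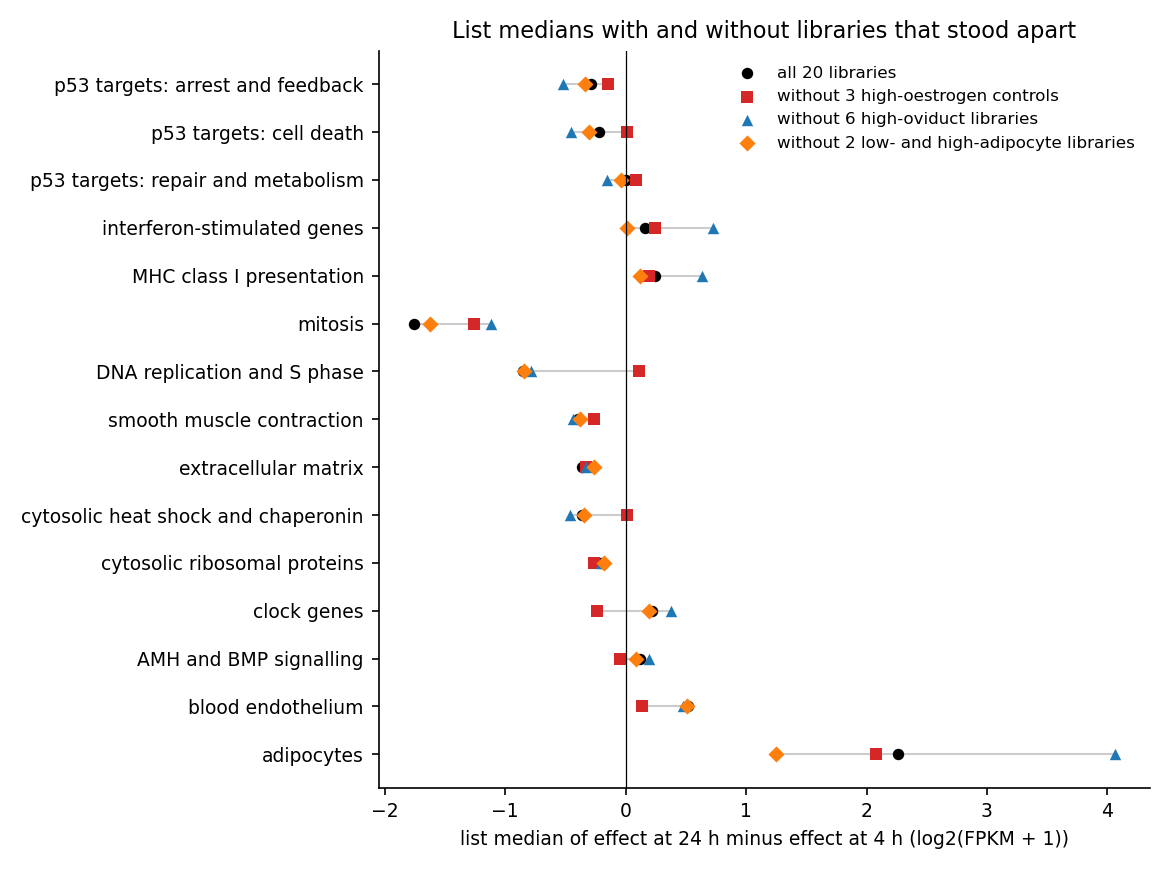
Median over each of 15 gene lists of the effect at 24 h minus the effect at 4 h, in log2(FPKM + 1), with all 20 libraries (black) and without 3 sets of libraries that stood apart (colours). The mitosis median lay between −1.76 and −1.12, while the S phase median moved from −0.85 to 0.11 without the high-oestrogen controls and the interferon median from 0.16 to 0.73 without the high-oviduct libraries.

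The interaction in mice given AMH rests on 20 other libraries, none shared, which were AMH alone and doxorubicin with AMH at 4 h and 24 h (AMH at 0.75 mg/kg). In a fit of all 40 libraries 0 genes passed for that interaction (lowest adjusted p = 0.0653) and 2884 (19%) had an unadjusted p under 0.05. The 2 interactions had a Pearson r of 0.53 across 15203 genes, which share libraries' depth and are not independent. No gene passed for their difference (lowest adjusted p 1, 580 genes or 3.82% at an unadjusted p under 0.05). The mitosis median was −1.24 with AMH against −1.76 without. The medians of the p53 arrest list were −0.22 and −0.29, and of the interferon list 0.10 and 0.16. The adipocyte median was 0.04 with AMH against 2.26 without, the smooth muscle median 0.00 against −0.40 and the ribosomal median 0.31 against −0.20, and these differences of medians were not tested. Ephx1 had interactions of 1.05 and 1.00, Gtse1 of −1.49 and −1.71, and Mki67 of −1.33 and −2.20, with AMH first. Egr1 had 0.22 with AMH against 1.67 without (difference 1.45, unadjusted p = 0.00231), and Trp53inp1 1.01 against −0.37 (unadjusted p = 0.00401). Egr1 was named for its smallest interaction p without AMH, and the same 1.67 enters the difference. A smaller value with AMH follows in part from that choice, so its p is not an independent test.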

How the data were processed

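RNA from uterus was sequenced in bulk. Qiagen extraction and library construction by Novogene are given in the labels' protocols. The authors deposited FPKM values of 54532 genes with positions and lengths, per the file headers. The build, mm10, comes from the submitters' processing notes; aligner, counter, annotation and strand use are not given in the sources here. Dividing FPKM by what 1 read is worth gave whole reads for 100% of values (tolerance 0.01). All value columns were mapped to a sample by name, and no pair of libraries of 1 group were as alike as sampling noise allows (smallest chi-square per degree of freedom 14.1, smallest Pearson r 0.894).

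The members, gene lists and tests were chosen with earlier results of these data known. Values were tested as log2(FPKM + 1), which understates the change of low genes, in limma 3.58.1 (R 4.3.3, package data.table, version 1.17.8) with 4 group means, a mean-variance trend and 16 residual degrees of freedom, two-sided, adjusted by Benjamini-Hochberg over all 15203 genes at 0.05. The procedure was tested on simulated data. Named genes were the 12 protein-coding genes of each direction with the smallest interaction p and a group mean of at least 2 FPKM, up to 3 members of each list with the smallest p, and a fixed set of 33; a part is printed. Of the 178 named, 30 are overlapped by another protein-coding gene. Deviations of same-numbered libraries of different groups had r from −0.27 to 0.38 (30 pairs, 16 above 0.1). The same number was the best match in 9 of the 30. Whether the numbers mark a pairing was not settled, and the main fit used none. The fits were repeated with a smaller pseudocount (0.1), with a stricter (5 FPKM) or no filter, median-of-ratios scaling, all 40 libraries, library weights, robust variance, a replicate block, voom and single libraries left out; leaving out the high-oestrogen, high-oviduct and adipocyte sets and the AMH interaction were added after the data were seen. Figures used matplotlib 3.10.9 in Python 3.11.15.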

Additional observations from a re-analysis of the deposited data

Results flagged for a closer look

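Within a group of 5, a library was singled out when its gap to the next exceeded 0.71 of the group's range. Of 192 groups tested (48 genes in 4 groups) 17 met this, and chance gives about 1 in 20.

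Doxorubicin 2 of 24 h was highest in 5 of them. Cidec stood at 72.8 FPKM against 4.02 to 8.52 in the other 4, Plin1 at 36.8 against 2.21 to 4.06 and Cfd at 823 against 41.8 to 129, all adipocyte markers. Orm1 stood at 36.4 against 1.1 to 4.41 and Serpina3n at 67.1 against 6.28 to 21.4.

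Doxorubicin 3 of 4 h was highest in 4. Ifit3 stood at 116 FPKM against 16.7 to 31.8, Isg15 at 126 against 19 to 43.4, Ifit1 at 43.2 against 8.69 to 16.3 and Serpina3n at 19.7 against 1.39 to 3.87. Doxorubicin 4 of 4 h was highest in Cidec (10.2 against 0 to 1.56) and Plin1 (4.8 against 0.0674 to 0.846).

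Doxorubicin 5 of 24 h was highest in Igf1 (39.5 FPKM against 9 to 13.2) and Igfbp5 (273 against 58.6 to 111). Control 3 of 4 h was lowest in Dio2 (86.7 against 105 to 110) and Gdf15 (0.206 against 0.397 to 0.473), control 4 of 4 h in Thbs1 (15 against 20.1 to 21.7) and control 1 of 24 h in Psrc1 (0.986 against 3.22 to 4.02).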

How the results depend on the processing

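The number of genes called for the interaction was 0 with all alternatives except 3: 2 with all 40 libraries (1 higher, 1 lower), 169 with library weights (49 higher, 120 lower) and 1 without the high-oviduct libraries. The count at 4 h (23) was 8 without a filter, 83 with all 40 libraries, 130 with library weights, 13 with the replicate block, 9 with voom and 13 without the adipocyte libraries. The count at 24 h (1794) was 615, 2991 and 6241 under the first 3 of these, 0 without the high-oestrogen, 275 without the high-oviduct and 298 without the adipocyte libraries. With 1 library left out the counts ranged from 0 to 0 for the interaction, from 5 to 44 at 4 h and from 229 to 4977 at 24 h. The 24 h count was 276, 324, 4977, 344 and 3217 without controls 1 to 5, and 1026, 414, 229, 447 and 3919 without doxorubicin libraries 1 to 5. The 4 h count was 9, 5, 10, 11 and 8 without controls 1 to 5 of 4 h, 13, 8, 8, 44 and 10 without doxorubicin libraries 1 to 5 of 4 h, and 13 without doxorubicin 4 of 24 h. The cause was not tested. Of the calls at 24 h 47.5% were higher, and with a filter at 5 FPKM 35.2%. With voom 80.3% were higher, and the median of all genes at 24 h moved to 0.11. The voom fit scaled each library to its reads in genes and not to the totals behind the FPKM values. It thus changed the scaling as well as the model. The replicate block gave 0, 13 and 2145 calls for the interaction, 4 h and 24 h. It is not known whether the numbers pair the libraries (the same number was the best match in 9 of 30 comparisons).

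Some signs turned, in values that were not called. The 4 h effect of Col16a1 was 0.0189 with library weights, 0.00846 with voom, 0.127 without the high-oviduct libraries and −0.0641 to 0.117 over single libraries left out (0.0325 without control 2 of 4 h, 0.117 without doxorubicin 3 of 4 h). The 24 h effect of Dio2 was −0.219 without the high-oestrogen libraries and −0.0368 (without control 2) to 0.494 over single libraries. The interaction of Ccng1 was 0.00484 with voom, 0.00112 without the high-oestrogen libraries, and −0.397 to 0.0967 over single libraries (0.05 without doxorubicin 2 of 4 h). The interaction of Ifit1 was −0.248 without the adipocyte libraries and −0.124 to 0.423 over single libraries. Without the high-oestrogen libraries the interactions of Gdf15 and Isg15 were 0.151 and 0.232; that of Isg15 was 0.367 without the high-oviduct libraries and −0.519 to 0.148 over single libraries. That of Top2b was −0.0255 without the high-oviduct libraries and −0.0118 without doxorubicin 5 of 24 h. Adjusted p of the values with turned sign ranged from 0.813 to 1.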
